A study of Mus musculus with 3 samples.

Results

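Trimethylation of histone H3 at lysine 36 (H3K36me3) was mapped in intestinal cells, and 399 of the 1806 peaks in the deposited list (22.1%, exact 95% binomial interval 20.2 to 24.1) lay in mid-length protein-coding genes. A peak belonged here when its midpoint fell in a protein-coding gene and the longest such gene had a RefSeq span of 30 kb or more and below 100 kb. The peaks lay in 372 of the 5063 genes of this length. The cells came from C57BL/6 mice of 6 weeks with genotype setd2f/f, which means a Setd2 allele pair flanked by recombination sites. All 3 libraries, the H3K36me3 ChIP, a SETD2 ChIP and an input without antibody, share this genotype. The labels name no Cre driver, and they do not say whether several animals were pooled. Every library is a single sample, so no value below has a replicate error. Intervals treat peaks or genes as independent and cover counting error only.

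H3K36me3 is laid down by SETD2, which travels with elongating RNA polymerase II. The mark therefore collects over the bodies of transcribed genes and is usually sparse at their starts. It is read by proteins that keep transcription from starting inside genes, guide DNA methylation and take part in splicing and DNA repair. A promoter rich in CpG dinucleotides is typical of genes that are transcribed in most tissues, and a promoter poor in CpG is more typical of tissue-restricted genes.

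The following RefSeq promoter windows (GRCm38, 250 bases before to 50 after a gene start, 5′ to 3′) show the range among the genes with a peak. CpG dinucleotides are in capitals. Eif5b (chr1:37997760-37998059, plus strand) encodes a translation initiation factor, and Phc3 (chr3:30969366-30969665, minus strand) encodes a polycomb subunit. Both are shown because a peak reached the window, in Eif5b over bases 169 to 300 as printed and in Phc3 over bases 271 to 300. The window of Tsc22d1 (chr14:76488186-76488485, plus strand), a transcription regulator gene, is an internal start 73.5 kb into the span and lay wholly inside a peak. Suz12 (chr11:79992856-79993155, plus strand), Trip4 (chr9:65908745-65909044, minus strand) and Sis (chr3:72967814-72968113, minus strand) carried their peaks far from these windows. Suz12 has the most CpG of the 6 windows shown, Trip4 held the highest-scoring peak, and Sis encodes an enzyme of differentiated enterocytes.
Eif5b: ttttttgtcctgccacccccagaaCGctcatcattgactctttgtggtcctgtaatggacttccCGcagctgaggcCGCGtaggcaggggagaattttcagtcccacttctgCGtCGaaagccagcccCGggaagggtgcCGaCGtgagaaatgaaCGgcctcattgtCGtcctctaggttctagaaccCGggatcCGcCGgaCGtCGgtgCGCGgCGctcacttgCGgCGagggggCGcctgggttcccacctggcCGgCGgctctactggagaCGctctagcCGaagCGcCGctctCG
Phc3: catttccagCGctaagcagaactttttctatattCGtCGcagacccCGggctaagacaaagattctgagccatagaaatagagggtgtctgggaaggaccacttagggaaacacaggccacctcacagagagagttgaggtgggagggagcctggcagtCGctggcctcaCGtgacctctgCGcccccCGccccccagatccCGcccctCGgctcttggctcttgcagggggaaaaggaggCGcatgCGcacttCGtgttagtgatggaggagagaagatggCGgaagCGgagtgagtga
Tsc22d1: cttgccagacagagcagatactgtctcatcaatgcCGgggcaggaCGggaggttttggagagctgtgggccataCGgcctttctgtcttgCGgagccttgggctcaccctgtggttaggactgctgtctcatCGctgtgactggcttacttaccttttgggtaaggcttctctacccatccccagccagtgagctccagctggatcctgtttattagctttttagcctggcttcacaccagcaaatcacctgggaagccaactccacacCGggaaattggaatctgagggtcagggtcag
Suz12: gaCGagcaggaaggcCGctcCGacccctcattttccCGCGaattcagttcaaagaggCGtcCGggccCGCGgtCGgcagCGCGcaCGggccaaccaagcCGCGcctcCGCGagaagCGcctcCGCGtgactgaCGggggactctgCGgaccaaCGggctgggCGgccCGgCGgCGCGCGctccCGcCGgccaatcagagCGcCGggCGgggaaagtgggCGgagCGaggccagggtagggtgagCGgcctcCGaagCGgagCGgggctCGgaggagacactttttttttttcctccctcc
Trip4: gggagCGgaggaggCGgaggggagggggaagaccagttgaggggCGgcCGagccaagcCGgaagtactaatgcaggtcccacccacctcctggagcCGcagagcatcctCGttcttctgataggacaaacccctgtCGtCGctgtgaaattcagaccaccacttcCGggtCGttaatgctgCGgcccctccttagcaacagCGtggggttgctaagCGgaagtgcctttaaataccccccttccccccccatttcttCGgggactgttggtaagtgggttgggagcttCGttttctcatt
Sis: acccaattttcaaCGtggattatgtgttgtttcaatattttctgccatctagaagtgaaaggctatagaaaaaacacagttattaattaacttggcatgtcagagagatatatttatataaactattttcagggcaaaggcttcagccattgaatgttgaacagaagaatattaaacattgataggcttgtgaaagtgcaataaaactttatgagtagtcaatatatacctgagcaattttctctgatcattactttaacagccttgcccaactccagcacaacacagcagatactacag
These windows held 29 CpG in Eif5b, 15 in Phc3, 6 in Tsc22d1, 41 in Suz12, 16 in Trip4 and 1 in Sis. GC content ran from 34.0% in Sis to 71.0% in Suz12. A match to TATAAA on either strand was present in Sis and in no other of the 6.

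Mid-length genes held about 2 times as many peaks as their share of the chromosomes. Positions that the same rule assigns to this class made up 10.8% of the chromosomes, weighted by the number of peaks on each. Peaks spread evenly along each chromosome, which is the mean of shuffling them, would give 195 peaks there. The 399 observed were 2.04 times that number (1.87 to 2.23 from the binomial interval). Short genes, below 30 kb, stood close to this with 243 peaks and a ratio of 2.35 (2.08 to 2.64). Long genes, of 100 kb or more, held 379 peaks at a ratio of 0.874 (0.796 to 0.955), and sequence outside protein-coding genes held 785 at 0.732 (0.693 to 0.771). The interval of the mid-length class thus overlaps that of short genes and lies above those of long genes and of sequence outside genes. In peaks per Mb of territory, the values were 1.66 for short, 1.47 for mid-length and 0.618 for long genes.

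The excess faded with distance from the called positions. Moving all peaks by 10 kb left 382 and 375 in mid-length genes, for the leftward and rightward direction. A move of 100 kb left 307 and 279, and a move of 1000 kb left 223 and 214, near the 195 of an even spread. Part of the excess therefore remained at neighbouring positions 100 kb away.

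Counted by gene, 372 of the 5063 mid-length genes held a peak midpoint, which is 7.35% (6.64 to 8.10). Over all protein-coding genes the share was 4.38%. An even spread over full gene spans would have reached 194 mid-length genes, so the count was 1.92 times that. Full spans include positions that the rule gives to a longer overlapping gene, so the even count is somewhat high and the ratio somewhat low. For short genes the corresponding ratio was 2.24 (239 of 14289 genes) and for long genes 0.908 (343 of 2427). Genes outside this count may still carry the mark at a level that was not called.

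**Figure D1:**
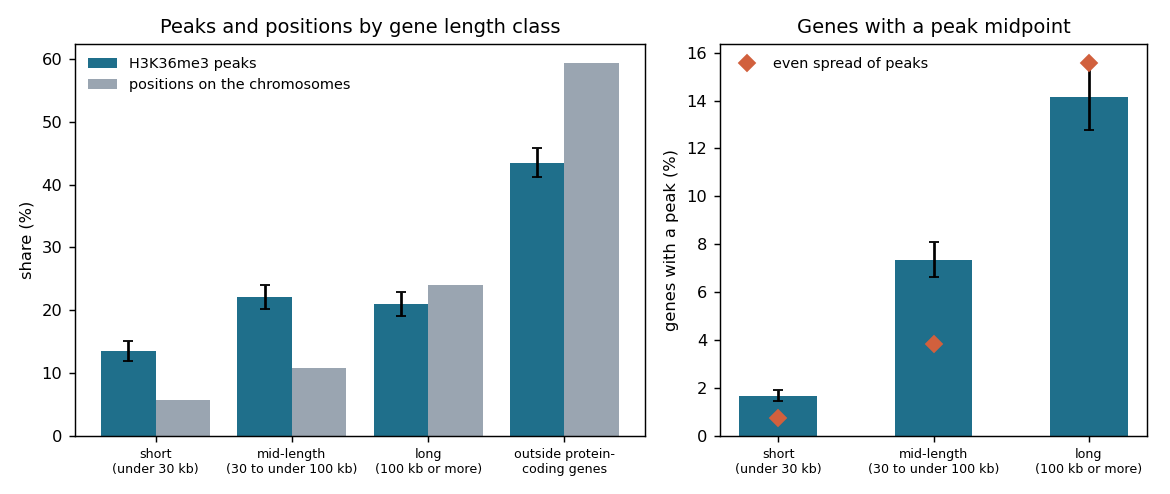
Left, share of the 1806 H3K36me3 peaks (blue, exact 95% binomial intervals) and of chromosome positions (grey) in short, mid-length and long protein-coding genes and outside them, in percent. Right, percent of genes of each class with a peak midpoint (bars, same intervals) and the percent under an even spread over full gene spans (diamonds). Mid-length genes stand at 7.35%.

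Within the class, longer spans offer more positions, and their part in the shares by span was not tested. The share of genes with a peak was higher in the longest genes than in the shortest. It was 5.21% of 1497 genes of 30 to 40 kb (4.14 to 6.46) and 12.1% of 330 genes of 90 to 100 kb (8.80 to 16.1). Between 40 and 90 kb the shares lay from 6.59% to 10.1% and did not rise at every step. Per Mb of gene span, by contrast, the shortest bins were the densest. They had 1.64 peaks at 30 to 40 kb and 1.74 at 40 to 50 kb. The density did not fall at every step, with 1.07 at 60 to 70 kb, the lowest value, and 1.44 at 70 to 80 kb. At 90 to 100 kb it was 1.31. The genes with a peak had a median span of 55.7 kb, and those without had 49.3 kb. At the lower bound, the members nearest inside lay in Stx12 (span 30.4 kb, score 34.3) and Metap1 (30.4 kb, score 32.7), and those nearest outside in Nbr1 (29.8 kb, score 37.2) and Cep78 (29.9 kb, score 31.5). At the upper bound both nearest members lay in Vmp1 (99.98 kb, scores 45.8 and 42.3), and the nearest outside in Sestd1 (100.3 kb, score 31.5) and Specc1l (100.4 kb, score 37.5).

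The 399 peaks were narrow and mostly low in score. The score comes from the deposited list, where the authors gave no scale for it, and it serves here only to rank peaks of that list. Width ran from 334 to 1870 bp with a median of 619 bp, and 11 peaks were wider than 1 kb. Score ran from 30 to 73.7 with a median of 33.3. A score of 40 was reached by 54 peaks and a score of 50 by 9. Peaks in short genes had a median score of 34.7, those in long genes 33.5 and those outside genes 33.5, so the classes overlapped over nearly their whole range. In the plot of score against width, most points sit on parallel bands in which the score falls as the width grows, and 327 of the 399 shared their exact score with another peak of the list. Over all 399 the rank correlation of score and width was 0.096 and that of score and gene span was -0.054, as a description of peaks from 1 library.

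**Figure D2:**
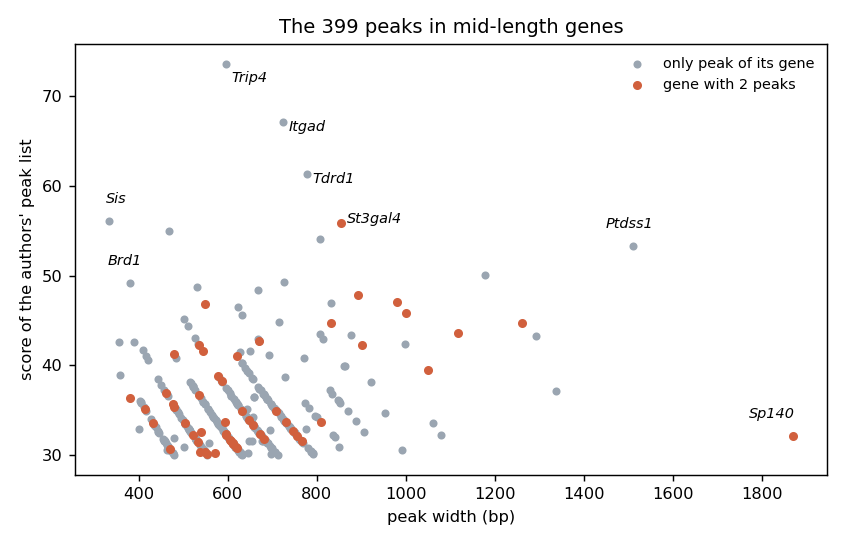
Each point is 1 of the 399 H3K36me3 peaks in mid-length genes, by width in bp and by the score of the deposited list; orange points belong to genes with 2 peaks. Most points lie below a score of 40 on falling bands, with Trip4 highest at 73.7 and Sp140 widest at 1870 bp.

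The highest-scoring peaks lay in genes of unlike function. Trip4, a subunit of a transcription coactivator complex, held the top one (chromosome 9, 65874474 to 65875069, score 73.7), which lay 34.1 kb from the gene start and 45.8 kb from its end. Itgad, an integrin chain of leukocytes, followed at 67.1 and Tdrd1, a gene of the germline piRNA pathway, at 61.3. Both are known for restricted expression outside the epithelium. Sis, the sucrase-isomaltase of the brush border, held the narrowest peak of the class, 334 bp, with a score of 56.1 at 71.9% of the way along the gene. St3gal4, a sialyltransferase gene, reached 55.9, and Rfc1, which encodes the large subunit of the replication clamp loader, 55.0. Gk, the glycerol kinase gene on chromosome X, stood at 54.1, Ptdss1, a phosphatidylserine synthase gene, at 53.3, and Pramel34, of the Prame family, at 50.1. Cryzl1 (49.3), Brd1, a subunit of histone acetyltransferase complexes (49.2), Gpbp1l1 (48.7), Slc35d2, a nucleotide sugar transporter (48.5), Rhot1, a mitochondrial GTPase (47.9), and Commd1, an endosomal sorting factor (47.1), completed the top 15. The widest peaks lay in Sp140 (1870 bp, score 32.1), Ptdss1 (1509 bp), 4930467E23Rik (1338 bp), Gm42346 (1292 bp) and Gch1 (1260 bp). Width and score thus picked out different genes, with Ptdss1 in both groups.

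A total of 27 genes held 2 peaks each and none held 3. That is 7.26% of the 372 genes (4.84 to 10.4), and peaks spread evenly over whole chromosomes would have given 4.30 such genes. With the 399 peaks of the class spread evenly over the spans of its genes, chromosome by chromosome, 16.95 such genes would result, so much of the excess over 4.30 restates the number of peaks in the class. The peaks of a pair were 0.734 to 73.0 kb apart, with a median of 15.6 kb, and 4 pairs were closer than 5 kb. The closest pair, in the UDP-xylose synthase gene Uxs1 (scores 30.7 and 44.8, centres 0.734 kb apart), had 83 bp between the end of one peak and the start of the other. The farthest pair, 73.0 kb apart, lay in Txndc16, which was picked out after its values were seen. St3gal4 carried its peaks at 18.6% and 90.5% of the gene (scores 35.4 and 55.9), and Rhot1 at 6.15% and 95.04% (47.9 and 30.4). Vmp1, an endoplasmic reticulum protein of autophagy, had them at 38.6% and 97.6%. Commd1 (7.89% and 32.7%), Sema4b, a semaphorin (1.99% and 34.5%), Gch1, the first enzyme of tetrahydrobiopterin synthesis (8.83% and 18.4%), and Eif5b (0.394% and 12.7%) had both in the first part of the gene. Myh9, the heavy chain of a non-muscle myosin, had both in the later part of its span, at 76.0% and 93.6%. Wdr48, a cofactor of deubiquitinases (1.55% and 72.5%), Evi5l (21.6% and 52.7%) and Rcor1, a corepressor of histone demethylase complexes (24.6% and 39.0%), complete the 12 pairs that contain the highest scores. Setd2 itself, the gene of the methyltransferase, had peaks at 18.4% and 42.0% of its span (scores 35.0 and 32.7), 20.3 kb apart.

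Peaks were spread along the whole gene. A strand was available for 324 of the 399 peaks (81.2%), through the promoter windows. With the gene span divided into 5 equal parts from start to end, these held 67, 82, 52, 60 and 63 peaks, where an even spread gives 20% each. The second part was the fullest with 25.3% (20.7 to 30.4), and the last held 19.4% (15.3 to 24.2). Among peaks whose score was the list median or higher, the second part held 21.6% (15.3 to 28.9). In long genes the last part was the fullest, with 79 of 292 peaks (27.1%, 22.0 to 32.5), and in short genes it held 34 of 201 (16.9%, 12.01 to 22.8). The intervals of the 3 classes for the last part overlap.

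In the full list, more peaks than in an even spread lay next to gene starts. Within 1 kb of the start lay 18 of the 324 peaks (5.56%, 3.33 to 8.64), 2.90 times the 1.91% of an even spread. Within 1 kb of the end lay 1 peak (0.309%, 0.00781 to 1.71), in the calpain gene Capn2, against the same even share. This low value depends on the midpoint rule: with any overlap of 1 bp or more counted, 1.52% lay there (0.497 to 3.52), and the interval includes 1.91%. The value at the start was then 5.49%. Among peaks whose score was the list median or higher, the start value was 4.58% (1.86 to 9.20), and the interval includes 1.91%. Over 5 kb both shares were near the even one, with 11.1% at the start and 8.95% at the end against 9.56%. The peaks near starts included Eif5b (0.227 kb from the start, score 41.1), Wdr48 (0.490 kb, 42.3) and the first peak of Sema4b (0.790 kb, 32.3). A peak overlapped a promoter window of its own gene in 7 of 324 cases (2.16%, 0.873 to 4.40). No even share was computed for this overlap, so 2.16% cannot be called high or low. The 7 genes were Eif5b, Tsc22d1 (score 36.8), Phc3 (32.7), Zfp985 (32.3), Tpte (31.7), Lrch2 (31.0) and Gm13212 (30.6). Of these, Zfp985 and Gm13212 belong to a cluster of related genes on chromosome 4, where reads may not be assignable to 1 copy.

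**Figure D3:**
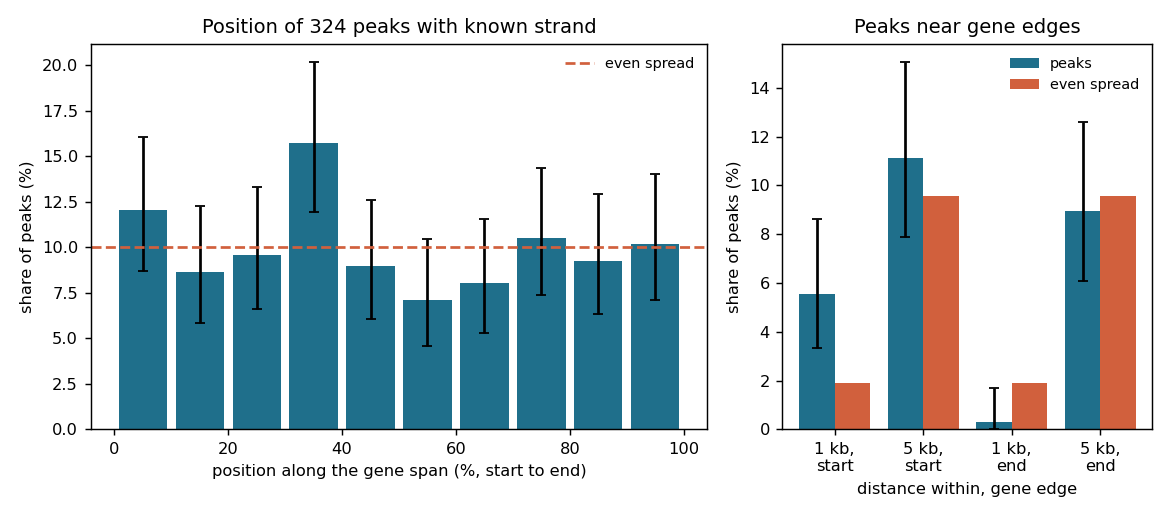
Left, percent of the 324 peaks with known strand in each of 10 equal parts of the gene span from start to end (exact 95% binomial intervals), with the even share of 10% dashed. Right, percent within 1 or 5 kb of the gene start or end (blue) and under an even spread (orange); within 1 kb the start stands at 5.56% and the end at 0.309%, or 1.52% when any overlap counts.

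Genes with a peak more often had a CpG-rich promoter than the other genes of the same length class. A window was called CpG-rich with a GC content of at least 50% and an observed to expected CpG ratio of at least 0.6, and the window nearest the gene start was used. Windows were available for 301 of 361 genes with a peak (83.4%) and 3751 of 4559 genes without (82.3%), with chromosome 18 not used. CpG-rich windows made up 74.1% of the former (68.7 to 78.9) and 59.9% of the latter (58.3 to 61.4), and 45.8% over all 17492 protein-coding genes with a window. The difference within the class was 14.2 percentage points (Newcombe 95% interval 8.78 to 19.1). It had the same direction in genes below 50 kb (70.5% against 59.1%) and in those of 50 kb or more (76.7% against 60.6%). The median CpG ratio was 0.803 with a peak and 0.718 without, and the median GC content 62.7% and 60.3%. The lower quartile moved most, from a CpG ratio of 0.396 without a peak to 0.615 with one. Sis (CpG ratio 0.115) is among the genes with a peak that fall below it.

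Short motifs were counted in the same windows. The GC box GGGCGG was found on either strand in 70.4% of the windows of genes with a peak and 58.8% of the others (difference 11.6 points, 5.98 to 16.7), against 46.3% of all protein-coding genes. For TATAAA the shares were 6.98% and 8.32% (all genes 13.3%), and the interval of the difference, -3.88 to 2.21 points, spans 0. It also spans 0 for the CCAAT box CCAAT (38.5% and 37.4%, all 39.2%) and the ETS motif CCGGAAG (16.3% and 12.7%, all 11.9%). The letters of the GC box and the CpG count overlap, and a match describes a window and shows no binding.

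**Figure D4:**
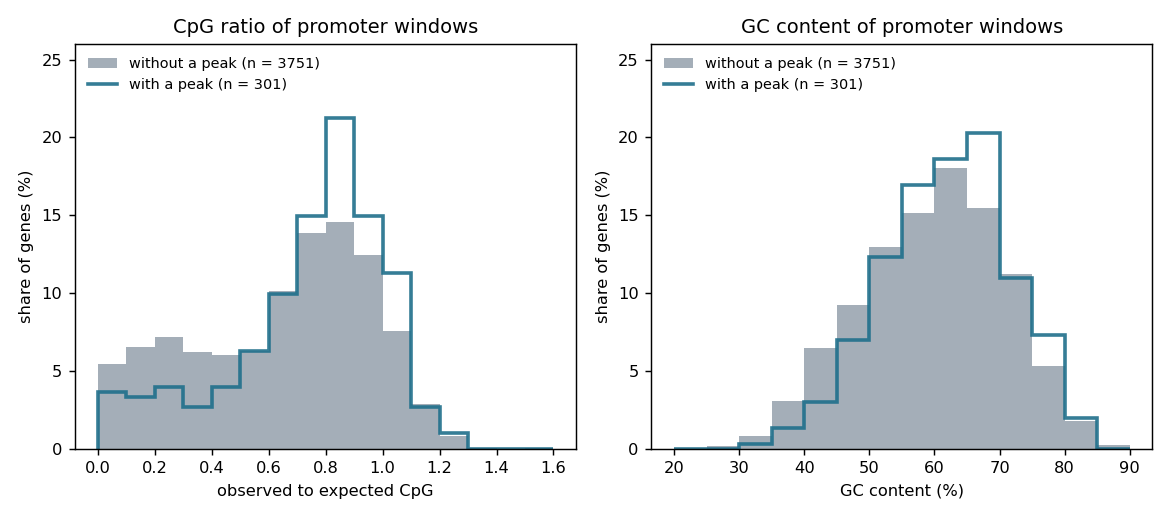
Distribution of the observed to expected CpG ratio (left) and GC content in percent (right) of the promoter windows of mid-length genes without (grey, n = 3751) and with (blue line, n = 301) an H3K36me3 peak, as percent of genes. Genes with a peak are fewer at CpG ratios below 0.6.

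A group of 8 lists of genes for nuclear and cytoplasmic machinery was formed after the counts were seen. Of these, 7 had higher shares of mid-length genes with a peak than the 7.35% of the whole class. Trafficking regulators (3 of 43) and kinesins, dyneins and myosins (2 of 33) were outside the group and stood below 7.35%. So did protein phosphatase subunits (1 of 19) and housekeeping genes (0 of 9). Of 33 mid-length genes of the nuclear pore and nuclear transport, 6 held a peak (18.2%, 6.98 to 35.5), among them the exportin Xpo4 (35.1), the pore scaffold subunit Nup107 (33.1), the importin Tnpo1 (32.6) and Tpr of the nuclear basket (32.1). Chromatin modifiers and remodelers gave 6 of 40 (15%, 5.71 to 29.8), led by Brd1, the polycomb subunit Suz12 (46.9), the acetyltransferase Ep300 (37.8) and the H3K4 methyltransferase Kmt2a (34.4). Among writers, readers and erasers of H3K36 methylation it was 3 of 14, namely Setd2 (35.0), Setd5 (32.5) and the H3K36 methyltransferase Nsd2 (32.3). The interval of each of these lists, for H3K36 methylation 4.66 to 50.8, includes 7.35%.

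RNA processing, protein turnover and cell division lists also stood above 7.35%, each with an interval that includes it. Splicing and mRNA processing had 6 of 42 (14.3%, 5.43 to 28.5), with the spliceosome helicase Snrnp200 (37.6), the epithelial splicing regulator Esrp1 (35.5) and the helicase Dhx15 (33.5). The list of ubiquitin ligases and deubiquitinases had 7 of 55, with the deubiquitinase Usp40 (42.9) ahead of Herc4 (33.9). That list also includes the conjugating enzyme Ube2k (32.7). Mitosis and centrosome genes had 7 of 61, with the condensin subunit Smc2 (37.2) and the centrosome genes Cep120 (35.9), Cep192 (34.2) and Pcnt (32.9). Golgi and vesicle trafficking had 6 of 54, with the motor adaptor Hook3 (38.2), the tether Uso1 (37.4), the coatomer subunit Copa (35.2) and the COPII coat subunit Sec23a (34.9). DNA repair and replication stood lower with 3 of 49 (6.12%), namely Rfc1, the helicase Blm (32.8) and Rif1 (31.3). Pooled after the counts were seen, these 8 lists held 44 genes with a peak of 348 (12.6%, 9.34 to 16.6), where an even spread gives 14.4. Their median span was 54.1 kb, against 49.7 kb for the class and 46.8 kb for the pooled other-tissue lists described next. Whether span bears on these shares was not tested.

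Of 6 lists of ion channels, receptors, cadherins and genes of other tissues and cell types, 4 had a share below 7.35%, and the exact interval of each includes it. Ion channels had 1 of 58 (1.72%, 0.0436 to 9.24), the potassium channel subunit Kcns3 (32.5). Olfactory and vomeronasal receptors had 0 of 44 (exact interval up to 8.04%), and cadherins and protocadherins 0 of 18 (up to 18.5%). Genes of other tissues had 1 of 13 (7.69%), the neuronal gene Stmn2 (38.9). Immune cell genes had 1 of 11 (9.09%), the lymphoid transcription factor Ikzf1 (33.3), and the list of smooth muscle, fibroblast, endothelial, neuron and glia genes 0 of 11 (up to 28.5%). Pooled after the counts were seen, these 6 lists gave 3 of 152 (1.97%, 0.409 to 5.66), against 5.84 under an even spread. The pooled intervals of the machinery and other-tissue lists do not overlap in the full list. Because both pools were formed after the counts were seen, this gap cannot serve as a test of a difference. The 2 pooled intervals do overlap among peaks whose score was the list median or higher, with 5.75% (3.55 to 8.74) and 0.658% (0.0167 to 3.61).

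Lists of the intestinal epithelium were too small at this length to be set apart. Of 16 absorptive enterocyte genes 2 held a peak (12.5%, 1.55 to 38.3), Sis and Ezr, the membrane linker of microvilli (43.4, at 95.5% of the gene). Of 7 crypt stem and progenitor genes 1 did, Cd44 (31.6), and of 3 goblet, Paneth, enteroendocrine and tuft cell genes 0. The Wnt pathway had 3 of 20, with the kinase Csnk1a1 (34.7), the receptor Ryk (32.8) and the ligand Wnt3 (30.2). A peak list does not measure expression, so the labelled tissue could not be checked against its markers beyond these counts. Housekeeping genes had 0 of 9 (up to 33.6%).

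Among gene families, 8 of 66 mid-length Zfp zinc finger genes held a peak (12.1%, 5.38 to 22.5), with Zfp808 (36.7), Zfp507 (34.8), Zfp777 (34.0) and Zfp280d (33.7) highest. Solute carriers had 12 of 144 (8.33%, 4.38 to 14.1), close to the class share, led by Slc35d2, the lysosomal amino acid transporter Slc36a1 (44.4), the vitamin C transporter Slc23a2 (43.0) and the Golgi transporter Slc35a3 (39.1). Trafficking regulators of the Dennd, Tbc1d and Rab families had 3 of 43 (Tbc1d15 at 40.2, Tbc1d12 at 34.3 and Tbc1d31 at 31.0). Kinesins, dyneins and myosins had 2 of 33, both of cytoplasmic dynein (Dync1i2 at 35.7 and Dync1h1 at 31.7), and protein phosphatase subunits 1 of 19, Ppp4r1 (42.7). None of these families stood apart from the 7.35% of the class beyond its interval.

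**Figure D5:**
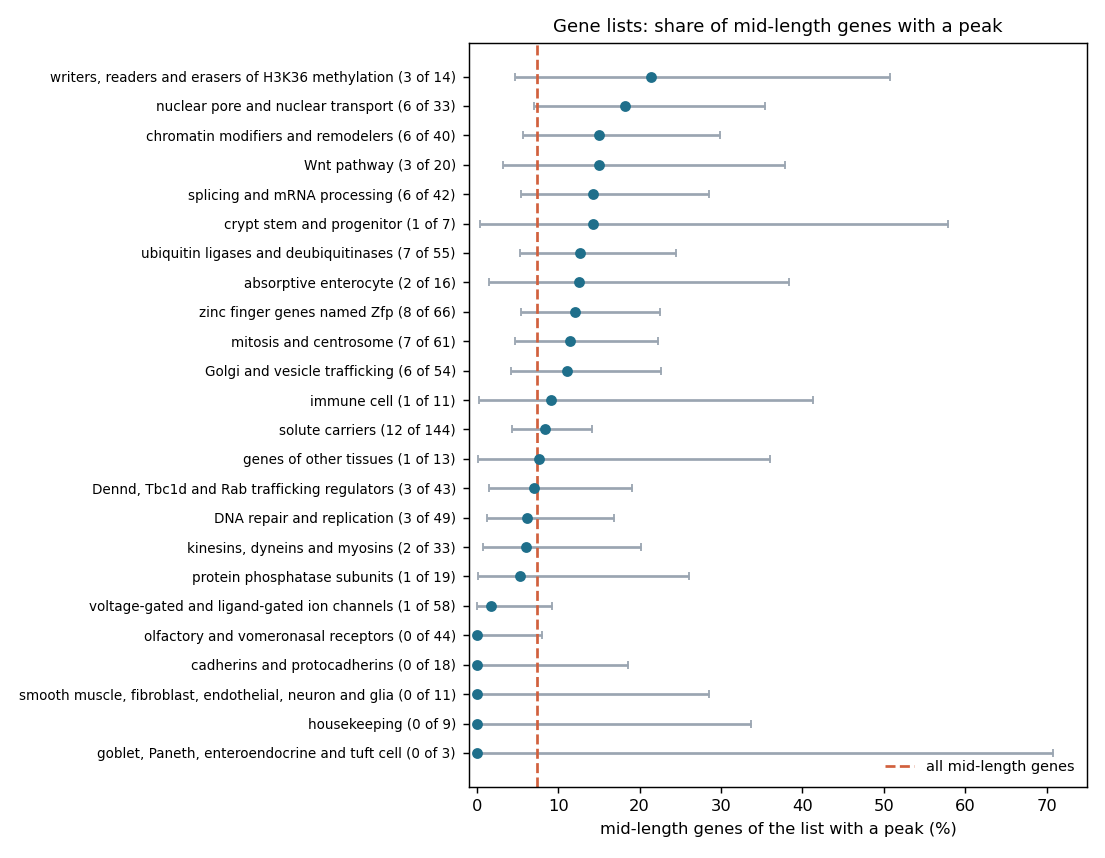
Percent of the mid-length genes of each list that held an H3K36me3 peak (points, exact 95% binomial intervals), with the numbers in brackets and the 7.35% of all mid-length genes dashed. The machinery lists pooled in the text lie mostly right of the line. Among the lists left of it are ion channels (1 of 58) and olfactory receptors (0 of 44). Trafficking regulators, motor proteins, phosphatase subunits and housekeeping genes, outside that pool, also lie left of it. The interval of every list reaches the line.

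By chromosome, the share of mid-length genes with a peak was highest on chromosomes 5 (40 of 374, 10.7%, 7.75 to 14.3), 13 (20 of 192, 10.4%, 6.48 to 15.6) and 11 (34 of 331, 10.3%, 7.22 to 14.1). It was lowest on chromosome X (7 of 189, 3.704%, 1.502 to 7.48) and chromosome 7 (13 of 301, 4.32%, 2.32 to 7.27), leaving aside the 6 genes on Y, of which 0 held one. The intervals of chromosomes 13, 11 and X include the 7.35% of the class. Those of chromosomes 5 and 7, picked as extremes, do not. Another H3K36me3 peak lay within 100 kb of 26.8% of the peaks (22.5 to 31.5), against 24.7% in short genes, 13.2% in long genes (9.95 to 17.0) and 17.3% outside genes. The number of protein-coding genes within 500 kb was alike for genes with and without a peak, at a median of 12 and 11. A gene with a peak within 500 kb was found for 45.4% of the former (40.3 to 50.6) and 43.0% of the latter (41.6 to 44.5).

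The SETD2 list stood close to the share of positions in this length class. Of 186 SETD2 peaks, 23 had their midpoint in a mid-length gene (12.4%, 8.003 to 17.97), where positions give 10.4%. They lay in 23 genes, 0.454% of the class. The nearest H3K36me3 peak was 0.109 to 1438 kb away, with a median of 181 kb. Both kinds of peak were found in 4 genes. They made up 1.08% of the genes with an H3K36me3 peak, where 0.454% of all mid-length genes held a SETD2 peak. They made up 17.4% of the genes with a SETD2 peak, where 7.35% of all mid-length genes held an H3K36me3 peak. These shares rest on 4 genes, and the overlap was not tested. The 4 genes were the predicted gene Gm42346 (SETD2 score 45.5, H3K36me3 score 43.3), Phc3 (36.05 and 32.7), Rex2 (34.3 and 32.6) and D5Ertd579e (33.0 and 31.2). The peaks overlapped in Gm42346, where they shared 1292 bp, and were 28.1 kb apart in Phc3, 15.1 kb in Rex2 and 40.7 kb in D5Ertd579e. Gm42346 and Rex2 lie on chromosome 4 in the same region as Gm13212 and Zfp985, where reads may not be assignable to 1 copy. The highest SETD2 peaks in the class, in Dop1b (score 233) and Ttc21b (222), were 693 and 704 kb from an H3K36me3 peak.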

How the data were processed

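Peak lists for H3K36me3 and SETD2 were used, each from 1 library. The deposited names pair each ChIP with the input and call every peak MACS. CASAVA 1.8 and hg19, a human build, stand in the submitters' processing notes. The aligner is not given in the sources used here, nor is the version of the caller. Coordinates were taken as mouse GRCm38, on which 1 peak lay past the last gene of its chromosome and 3 lay before the first. The score in the authors' deposited lists has no stated scale, and without read numbers the depth is unknown. RefSeq gene spans (GRCm38.p6) were used without 394 genes listed as starting before 3 Mb on a chromosome other than Y. Strand and promoters came from RefSeq windows, with chromosome 18 not used. Even-spread values were computed in closed form per chromosome, between the outermost genes or peaks, without removing assembly gaps. Those counted by gene used full gene spans, including positions that the placing rule gives to a longer overlapping gene. Intervals are Clopper-Pearson 95% (scipy 1.17.1), and differences have Newcombe intervals (statsmodels 0.14.6). No test was made. Python 3.11.15 scripts were tested on simulated peaks.

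The members and the 24 gene lists were chosen with earlier results of these data known. The solute carrier pattern was widened after the files were seen. Genes were named by a rule: the 15 highest-scoring peaks, up to 12 genes with more than 1 peak, up to 4 per list, genes holding peaks of both antibodies, up to 8 with a peak over the promoter, the 5 widest peaks and those nearest the length bounds. Some genes that the rule names are not reported here. Capn2, Txndc16 and a few values near gene starts were named after they were seen. Alternatives were a stricter score, any overlap, the shortest gene, autosomes, wider bounds, no predicted genes and other promoter definitions.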

Additional observations from a re-analysis of the deposited data

How the results depend on the processing

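With peaks at or above the list's median score, 189 peaks remained in mid-length genes, 3.57% of those genes held one, 8 genes held more than 1 and 40 listed genes held one. At that score the median was 36.65 and the median width 639 bp. The machinery lists stood at 5.75%, with an interval that then overlapped that of the other-tissue lists (0.658%). Of the peaks with known strand, 0 then lay within 1 kb of the 3′ end of the gene. Within 1 kb of either end of the gene lay 4.23% of the 189 peaks. The lower counts and shares of genes follow from the smaller number of peaks, and the higher median score from the choice by score. The ratio to an even spread was then 1.94, and the CpG-rich difference 12.8 points. A span of 25 kb or more and below 120 kb raised the share of peaks in the class to 27.6%, since the class was wider, at a ratio of 1.95. The other 91 of 100 values stayed within their interval or within 1.5 times their count, over those settings, any overlap, the shortest gene, autosomes alone, no predicted genes, a CpG ratio of 0.75 and any promoter window. Of the 144 list counts, 15 moved by over 1.5 times, 12 of them at the stricter score. The values near gene edges and the pooled lists were given alternatives after the data were seen. No paired analysis was possible because each group is 1 library. Without read numbers, the depth behind a missing peak is unknown.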

Other observations

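A further gene lay at the midpoint of some of the 399 peaks. In 13 cases it was a long non-coding RNA gene and in 3 a pseudogene. Among the former were 8430415O14Rik in Fam13a (score 38.6), B230398E01Rik in Pi4kb, a phosphatidylinositol kinase gene (41.6), Gm5563 in Tbx5, a heart and limb transcription factor gene (35.1), and Gm35591 in the clock gene Per2 (31.6). A second protein-coding gene lay there in 6 cases. These were Scyl3 in BC055324 (37.2), Cenpn in Cmc2 (33.2), Nqo2 in Serpinb6a (34.4), Adam1b in Tmem116 (45.2), Gpr108 in Trip10 (38.3) and Psip1, a reader of H3K36me3, in Snapc3 (33.5). At those positions the peak cannot be assigned to 1 of the genes, and the rule gave it to the longer. A total of 8 peaks lay in predicted or clone-named genes. Curated RefSeq transcripts were listed for 99.2% of genes with a peak (97.7 to 99.8) and 98.3% of the others (97.9 to 98.7), with a median of 4 transcripts per gene in both. All of these values were looked up after the peaks were seen.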
